A study of Homo sapiens with 16 samples.

Results

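In A498 cells kept in low serum and hypoxia, induction of short hairpin RNAs against DGAT1 and DGAT2 was accompanied by 598 genes at a higher level and 447 at a lower level among 22411 genes tested, which is 2.67% and 1.99% of them. Members of hypoxia-inducible, inflammatory, coagulation and matrix gene lists were higher more often than genes at large. The coagulation list, which also holds plasminogen activation and adenosine genes, had lower members more often too (9.09% against 1.99%). Members of the DNA replication and mitosis lists were lower more often. The comparison is that of 4 doxycycline hypoxia arrays with 4 vehicle hypoxia arrays, chosen by their titles out of the 16 arrays of the series. Both groups were A498 cells, an established kidney line from a clear cell carcinoma, carrying a doxycycline-inducible hairpin for each gene on lentiviral vectors, with 1 hairpin sequence per gene. Vehicle or doxycycline was given for 5 days, and oxygen was held at 0.5% in low serum for the last 2 days before RNA extraction. The sources differ on whether the 5 days include those in hypoxia, and on whether serum was low before them. The normoxia groups, given vehicle or doxycycline in the same way, also had 4 arrays each. All cells came from 1 plating that was divided at random between treatments, and all carried the hairpin constructs, so arrays of doxycycline-treated cells without hairpins are not part of the comparison. Effects of the hairpins and of doxycycline itself cannot be told apart. The p-values measure the spread between plates of this experiment.

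DGAT1 and DGAT2 catalyse the last step of triglyceride synthesis, the transfer of a fatty acid onto diacylglycerol. Triglycerides are stored in lipid droplets, which clear cell renal carcinomas accumulate, and they take up and release fatty acids as supply changes. In hypoxia the oxygen-dependent desaturation of fatty acids by SCD slows, and in low serum few unsaturated fatty acids are supplied from outside. A498 cells lack a functional VHL protein, so HIF-2α, the hypoxia-inducible factor that VHL normally marks for destruction, is present in them at normal oxygen as well.

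Markers of the labelled cell line were present in part. Of the 16 measured markers of clear cell carcinoma and renal tubule, 9 were above the median level of all genes (4.89 on the deposited log2 scale), among them the transcription factor PAX8, while the tubular transporters SLC22A6 and SLC5A2 were not. Of 13 leukocyte, 8 endothelial and 8 fibroblast markers, 1, 0 and 0 were above that level. The endothelial receptor TEK (4.24 to 4.31 on the vehicle arrays and 4.47 to 4.63 on the doxycycline arrays) and the collagen chain COL1A1 (4.58 to 4.70 and 4.84 to 4.95) were nevertheless higher with doxycycline, by log2 0.31 ± 0.05 (SE) and 0.28 ± 0.05 (limma, adjusted p = 0.00159 and 0.00212). Mean levels of the leukocyte list were 3.70 to 3.84 on the vehicle arrays and 3.71 to 3.81 on the doxycycline arrays.

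Replicate 4 of both groups stood apart from the other arrays. The root mean square deviation of an array from its group mean over all genes was 0.32 for vehicle replicate 4 and 0.228 for doxycycline replicate 4, against 0.091 to 0.219 for the other 6 arrays. Their deviations ran in opposite directions (Pearson r = -0.835 across 22411 genes, which are not independent replicates), and the first principal component of the deviations held 72.8% of the variance within the groups. On some genes each of these arrays lay with the opposite group. The examples that follow are the genes with the largest changes among those called only without these arrays, so that such an exchange was to be found in them by choice. POSTN, which encodes the matrix protein periostin, was at 8.18, 8.51, 7.77 and 10.34 on vehicle replicates 1 to 4 and at 10.15, 9.76, 9.09 and 7.71 on doxycycline replicates 1 to 4. The same exchange was seen in DOCK10, CPED1, PREX2 and GXYLT1. MAP3K2, a kinase of the MAP kinase cascades, was at 10.10, 10.06, 9.74 and 11.42 and at 11.57, 11.56, 11.15 and 10.19. The targeted genes showed no such exchange: both replicate 4 arrays lay on the side of their labels for DGAT1 and for DGAT2. The counts of each gene list are therefore given from all arrays and again without both replicate 4 arrays. For single genes the values without these arrays are given in some cases only, and the sizes of other printed genes moved as well. These arrays were chosen because they deviate most, so that leaving them out shrinks the spread by construction.

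**Figure D1:**
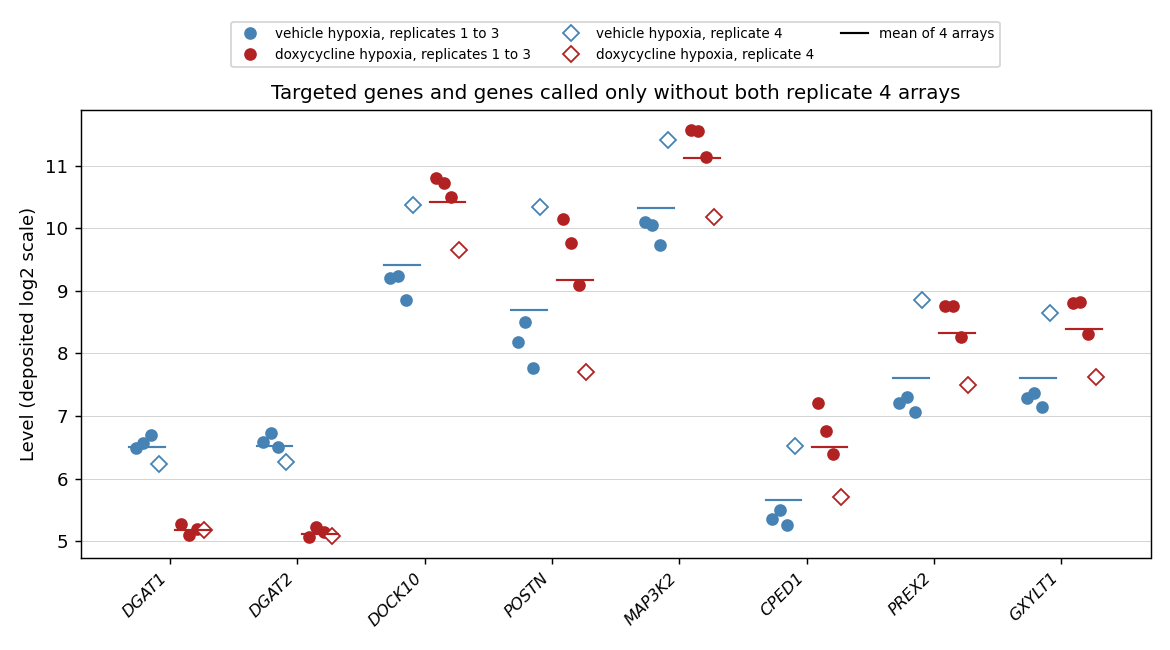
Levels on the deposited log2 scale (vertical axis) of DGAT1, DGAT2 and 6 genes that passed the test only without both replicate 4 arrays, for each of the 8 hypoxia arrays (circles, replicates 1 to 3; open diamonds, replicate 4; lines, means of 4 arrays); levels cannot be compared between genes. On the 6 genes vehicle replicate 4 lies well above the other vehicle arrays and doxycycline replicate 4 below the other doxycycline arrays, whereas for DGAT1 and DGAT2 all 4 vehicle arrays lie above all 4 doxycycline arrays.

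Without both replicate 4 arrays, 848 genes were higher and 1535 lower (3.78% and 6.85% of all genes), so that higher genes made up 35.6% of the calls in place of 57.2%. The fits shared 474 higher and 394 lower genes, and no gene changed direction between them. A further 177 genes were called from all arrays only, and 1515 (374 higher, 1141 lower) only without replicate 4. The number of calls also moved with single arrays. It was lowest, at 370 higher and 216 lower genes, without doxycycline replicate 3, the array nearest to its group mean, and close to that, at 392 and 218, without vehicle replicate 1. Without vehicle replicate 4 alone there were 657 higher and 1002 lower genes. Lower genes also numbered 242 without vehicle replicate 2, 271 without doxycycline replicate 1 and 292 without doxycycline replicate 2. Across all 16 fits that left out 1 array, 343 higher and 182 lower genes were called every time. Another quantile normalization moved the split of 598 higher and 447 lower genes to 1022 and 320. With a spread estimated from the 8 hypoxia arrays alone, 195 genes were higher and 90 lower (0.87% and 0.402%).

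Both hairpin targets were lower on every doxycycline array. DGAT1 was at 6.49, 6.57, 6.70 and 6.24 on vehicle replicates 1 to 4 and at 5.28, 5.10, 5.19 and 5.18 on doxycycline replicates 1 to 4. DGAT2, the second acyltransferase, was at 6.58, 6.73, 6.50 and 6.26 and at 5.06, 5.22, 5.14 and 5.08. The groups did not overlap for either gene, as was so for 1161 genes that were higher (5.18% of all) and 859 that were lower (3.83%), and doxycycline arrays varied less (SD 0.07 for both) than vehicle arrays (SD 0.20 for both). The log2 difference was -1.32 ± 0.09 (SE) for DGAT1 and -1.40 ± 0.10 for DGAT2, with an exact two-sided permutation p = 0.0286 for each, the smallest that 4 against 4 arrays allow. Without replicate 4 the differences were -1.40 and -1.47. Set against normoxia, the difference in hypoxia was smaller by 0.39 (95% interval 0.12 to 0.66) for DGAT1 and by 0.43 (0.14 to 0.72) for DGAT2, with unadjusted p = 0.00744 and 0.00693 but adjusted p = 0.956 for both (limma, Benjamini-Hochberg). Mean doxycycline levels were alike in hypoxia and normoxia, at 5.18 and 5.11 for DGAT1 and at 5.12 and 5.21 for DGAT2. These levels lay near the median level of all genes (4.89). Mean vehicle levels were lower in hypoxia, at 6.50 against 6.82 for DGAT1 and at 6.52 against 7.04 for DGAT2.

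**Figure D2:**
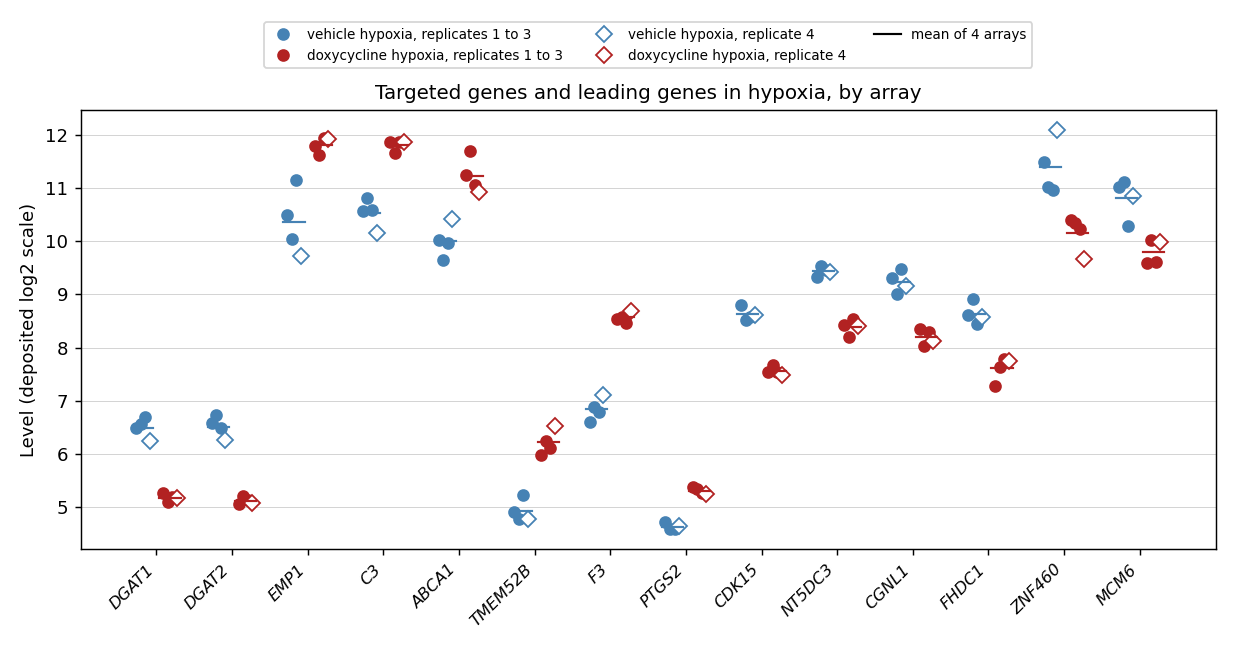
Levels on the deposited log2 scale (vertical axis) of the targeted genes and 12 leading genes on each of the 8 hypoxia arrays (circles, replicates 1 to 3; open diamonds, replicate 4; lines, means of 4 arrays); levels cannot be compared between genes. In each gene shown the 4 vehicle arrays and the 4 doxycycline arrays do not overlap.

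Few other genes of the triglyceride pathway passed the test. Of 21 measured genes of triglyceride synthesis, 0 were higher and 4 lower in both fits, with a median log2 difference of -0.03 against 0.00 over all genes. The 4 lower genes were 19.0% of the list, against 1.99% of all genes, and 6.85% without replicate 4. Besides the targets these were LPIN1, a phosphatidate phosphatase that makes diacylglycerol, and AGPAT2, which makes phosphatidate. LPIN1 was at 10.45 to 10.58 on the vehicle arrays and at 9.95 to 10.22 on the doxycycline arrays, a difference of -0.41 ± 0.09 (limma, adjusted p = 0.0191), a call that was lost at adjusted p = 0.0671 without doxycycline replicate 2. AGPAT2 differed by -0.41 ± 0.11 with overlapping groups (adjusted p = 0.0486), and was called in 1 of the 16 fits that left out an array. Without both replicate 4 arrays the AGPAT2 difference was -0.59 (adjusted p = 0.00118). Of 23 lipid droplet coat and lipolysis genes, 3 were higher and 0 lower, and without replicate 4 the counts were 3 and 2. Each of the 3 acts on or near adipose triglyceride lipase: ABHD5 activates it, G0S2 inhibits it, and PNPLA3 is its relative on droplets.

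G0S2 was at 10.17, 9.93, 10.51 and 9.89 on vehicle replicates 1 to 4 and at 10.69, 10.87, 10.86 and 11.07 on the doxycycline arrays. The ranges of the groups did not meet, and the mean difference was 0.75 ± 0.13, or 1.68-fold (limma, adjusted p = 0.00257). ABHD5 rose by 0.48 ± 0.07 and PNPLA3 by 0.25 ± 0.04 (adjusted p = 0.00135 and 0.0034), and these 3 calls held in each of the 16 fits that left out an array. With the 8 hypoxia arrays alone none of the 3 was called (adjusted p = 0.0546 for ABHD5, 0.0655 for G0S2 and 0.0773 for PNPLA3). The droplet coat protein PLIN2 differed by 0.05 (95% interval -0.19 to 0.28), and the droplet-associated lipase inhibitor HILPDA by 0.12 (-0.09 to 0.33), neither past the threshold. SCD, the desaturase itself, lay between 16.80 and 17.12 on all 8 arrays and differed by 0.03 (-0.12 to 0.19). Its values lie above 16, more than a 16-bit scanner can give on a log2 scale, where the deposited scale may be compressed.

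**Figure D3:**
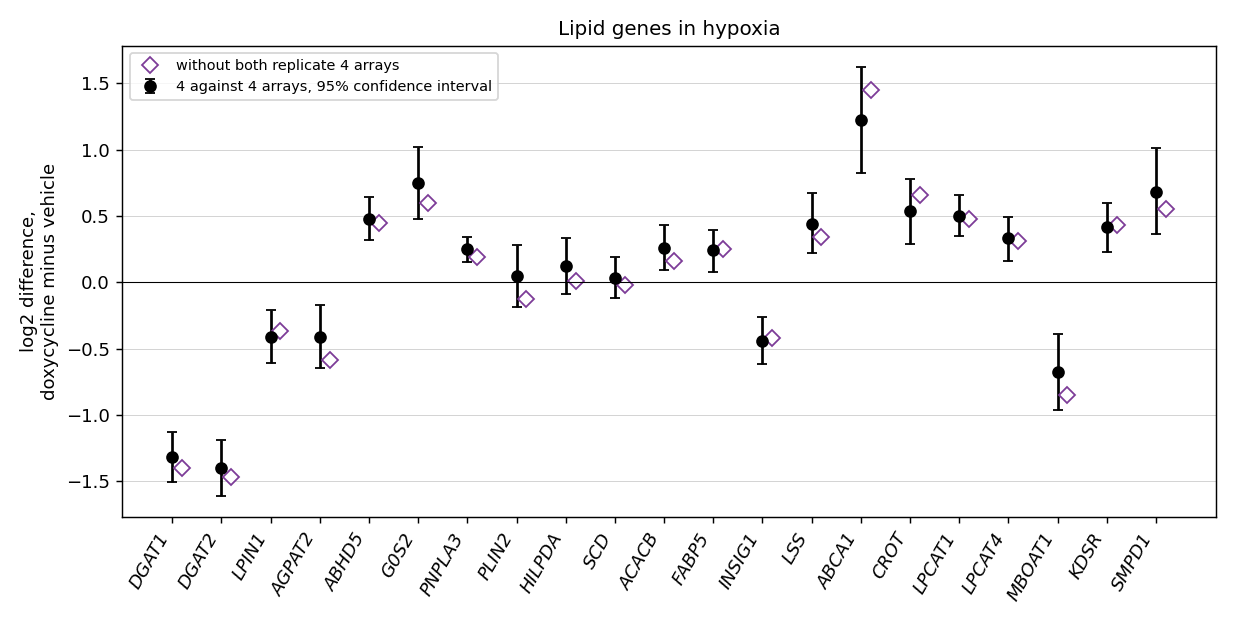
Difference between doxycycline and vehicle in hypoxia on the log2 scale (vertical axis) for 21 genes of lipid metabolism, from all arrays with the 95% confidence interval (black) and without both replicate 4 arrays (open diamonds). DGAT1 and DGAT2 lie lowest, ABCA1 and G0S2 highest, and the intervals of PLIN2, HILPDA and SCD include 0.

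Fatty acid synthesis, desaturation and elongation gave 0 calls among 21 genes in both fits. Fatty acid uptake and activation gave 0 among 21 from all arrays and 1 higher without replicate 4 (4.76% against 3.78% of all genes). The nearest member of the first list was ACACB, a mitochondrial acetyl-CoA carboxylase, at 0.26 ± 0.08 (limma, adjusted p = 0.0773), and of the second FABP5, a fatty acid binding protein, at 0.24 ± 0.07 (0.0854). Of 23 sterol synthesis genes 1 was higher and 1 lower (4.35% each, against 2.67% and 1.99% of all genes). The counts were 4 and 2 without replicate 4 (17.4% and 8.7%, against 3.78% and 6.85%). INSIG1, which retains the sterol sensor in the endoplasmic reticulum, fell by 0.44 (limma, adjusted p = 0.00696) from 13.44 to 13.66 on the vehicle arrays to 13.08 to 13.22 on the doxycycline arrays. LSS, the cyclase that forms lanosterol, rose by 0.44 ± 0.10 (adjusted p = 0.0239), but reached adjusted p = 0.0572 without both replicate 4 arrays and 0.0753 without doxycycline replicate 3. ABCA1, the pump that moves cholesterol and phospholipid out of cells, was among the largest increases of all. It was at 10.03, 9.64, 9.96 and 10.41 on vehicle replicates 1 to 4 and at 11.24, 11.69, 11.05 and 10.92 on doxycycline replicates 1 to 4, a 2.32-fold difference (1.22 ± 0.19, adjusted p = 0.00128).

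Membrane lipid and fatty acid disposal genes gave scattered calls. CROT, a peroxisomal carnitine acyltransferase, was the only 1 of 29 fatty acid oxidation and carnitine genes to pass from all arrays (0.54 ± 0.11, limma, adjusted p = 0.0123), whereas without replicate 4 that list had 2 higher and 6 lower members (6.9% and 20.7%, against 3.78% and 6.85% of all genes). Its levels were 7.74 to 8.26 on the vehicle arrays and 8.44 to 8.52 on the doxycycline arrays. Of 33 ceramide and sphingolipid genes 2 were higher and 0 lower (6.06% and 0.0%), and 3 and 2 without replicate 4 (9.09% and 6.06%). The 2 were KDSR, an enzyme of ceramide synthesis, by 0.42 ± 0.09, and SMPD1, the lysosomal sphingomyelinase that releases ceramide, by 0.68 ± 0.15 (adjusted p = 0.0114 and 0.0162). SMPD1 was at adjusted p = 0.0538 without replicate 4 and 0.0628 without doxycycline replicate 3. Of 31 phospholipid genes 2 were higher and 1 lower (6.45% and 3.23%), and 5 and 5 without replicate 4 (16.1% each). Over all genes the shares were 2.67% higher and 1.99% lower, and 3.78% and 6.85% without replicate 4. LPCAT1, which attaches saturated fatty acids to lysophosphatidylcholine, was at 12.09 to 12.33 on the vehicle arrays and at 12.61 to 12.72 on the doxycycline arrays (0.50 ± 0.07, adjusted p = 0.000918). MBOAT1, a lysophospholipid acyltransferase that prefers oleate, went the other way, from 8.69 to 9.28 down to 8.01 to 8.54 (-0.68 ± 0.13, adjusted p = 0.00751). Both calls held in each fit that left out an array and without both replicate 4 arrays.

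Outside lipid metabolism, the genes with the largest increases included secreted and membrane proteins. EMP1, an epithelial membrane protein, was at 10.49, 10.05, 11.15 and 9.73 on vehicle replicates 1 to 4 and at 11.78, 11.61, 11.94 and 11.91 on the doxycycline arrays. C3, the central complement component, was at 10.56, 10.81, 10.59 and 10.16 and at 11.87, 11.66, 11.86 and 11.87. TMEM52B, a transmembrane protein, was at 4.92, 4.79, 5.23 and 4.78 and at 5.98, 6.25, 6.12 and 6.53. For each of these genes every doxycycline array was above every vehicle array, and vehicle replicate 4 was the lowest vehicle array, so that the differences were smaller without replicate 4: 1.21 in place of 1.45 for EMP1, 1.14 in place of 1.29 for C3 and 1.13 in place of 1.29 for TMEM52B. The adjusted p-values from all arrays were 0.00112, 1.43e-05 and 1.58e-05 (limma, Benjamini-Hochberg). The long non-coding RNA CCAT1 rose by 1.24 ± 0.15 (adjusted p = 0.00025), and IL7R, the interleukin-7 receptor chain, changed most, from 5.16 to 5.47 on the vehicle arrays to 7.65 to 7.87 on the doxycycline arrays.

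IL7R was followed in size by STC1, CLEC4E and SLCO2B1. STC1, a secreted stanniocalcin, was at 10.94, 10.96, 11.15 and 10.77 on vehicle replicates 1 to 4 and at 13.18, 13.31, 13.42 and 13.32 on doxycycline replicates 1 to 4. CLEC4E, a lectin receptor for bacterial and dead-cell glycolipids, was at 7.38, 7.17, 7.26 and 7.27 and at 9.40, 9.86, 9.49 and 9.64. For both genes the replicate 4 arrays lay inside or next to the other arrays of their group, and the differences without them, 2.29 and 2.31, were close to those from all arrays, 2.36 and 2.32. SLCO2B1, an organic anion transporter, varied more, at 8.60, 8.19, 9.03 and 7.96 and at 9.84, 10.29, 10.38 and 10.78, and its difference was 1.88 ± 0.20 from all arrays and 1.56 without replicate 4 (limma, adjusted p = 7.17e-05 and 0.000231). The carboxypeptidase gene CPA4 had the same order of vehicle arrays only, with replicate 3 highest at 7.79 and replicate 4 lowest at 6.65. Its doxycycline arrays lay above them, at 8.32 to 8.85. The pulmonary pseudogene transcript SFTA1P was at 6.79 to 7.17 on the vehicle arrays and at 8.41 to 8.68 on the doxycycline arrays.

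The largest decrease was that of SLITRK5, a synaptic adhesion protein in neurons, at 7.23, 7.07, 7.11 and 6.44 on vehicle replicates 1 to 4 and at 5.05, 5.09, 5.10 and 5.18 on doxycycline replicates 1 to 4. EPN1, an endocytic adaptor of clathrin pits, was at 8.07, 8.15, 8.41 and 7.60 and at 6.38, 6.36, 6.51 and 6.45. AJUBA, an adaptor of adherens junctions and Hippo signalling, was at 11.76, 11.74, 12.02 and 11.25 and at 10.07, 10.04, 10.27 and 10.55. In each of these genes vehicle replicate 4 was the vehicle array nearest to the doxycycline arrays, and leaving out the replicate 4 arrays enlarged the difference, from -1.85 to -2.05, from -1.63 to -1.79 and from -1.46 to -1.72.

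Other genes of several kinds were among the largest decreases. CGNL1, which encodes the junction protein paracingulin, was at 9.30, 9.0, 9.47 and 9.16 on vehicle replicates 1 to 4 and at 8.35, 8.03, 8.30 and 8.12 on doxycycline replicates 1 to 4. FHDC1, a formin that acts on actin and microtubules, was at 8.62, 8.92, 8.44 and 8.57 and at 7.29, 7.63, 7.78 and 7.75. CDK15, a cyclin-dependent kinase family member, was at 8.81, 8.52, 8.58 and 8.62 and at 7.54, 7.68, 7.55 and 7.49. The groups were far apart for each of these genes. Their differences were -1.03 ± 0.11, -1.02 ± 0.13 and -1.07 ± 0.12 (limma, adjusted p = 6.17e-05, 0.000295 and 0.000141). NT5DC3, a protein of the 5'-nucleotidase domain family, fell by 1.04 (adjusted p = 2.97e-06), and all these genes were also called with the 8 hypoxia arrays alone. The zinc finger gene ZNF460 depended on the replicate 4 arrays for its size, with a difference of -1.23 ± 0.23 from all arrays and -0.83 without them (adjusted p = 0.00537 and 0.00832).

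Targets of the hypoxia-inducible factors outside glycolysis were called higher more often than genes at large, at the same oxygen level. Of 35 measured genes, 14 were higher and 0 lower from all arrays, which is 40.0% against 2.67% of all genes. The counts were 16 and 0 without replicate 4, which is 45.7% higher against 3.78% of all genes. The median difference was 0.32 from all arrays and 0.25 without replicate 4, and the mean level of the list was 9.24 to 9.31 on the vehicle arrays and 9.55 to 9.64 on the doxycycline arrays. Both replicate 4 arrays lay with their own group on this mean. With the 8 hypoxia arrays alone 6 members passed, 17.1% of the list against 0.87% of all genes. Of the 35 members 32 were above the median level of all genes, whereas the shares over all genes include dimmer genes.

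STC2, a secreted stanniocalcin, was at 8.29, 8.41, 8.39 and 8.34 on vehicle replicates 1 to 4 and at 8.88, 8.82, 8.85 and 8.86 on doxycycline replicates 1 to 4 (0.50 ± 0.07, limma, adjusted p = 0.000417). ADM, the vasodilator peptide adrenomedullin, was at 7.45, 7.49, 7.79 and 7.36 and at 8.16, 8.31, 8.39 and 8.67 (0.86 ± 0.12, adjusted p = 0.000617). KDM3A, a histone demethylase, was at 7.99, 7.95, 8.0 and 8.08 and at 8.58, 8.55, 8.59 and 8.40 (0.52 ± 0.08, adjusted p = 0.00187). No array of one group reached the other in any of these genes, and the calls held in all 16 fits that left out an array. MXI1, a MYC antagonist, rose by 0.58 ± 0.08 and CA12, a carbonic anhydrase of the cell surface, by 0.37 ± 0.06 (adjusted p = 0.000497 and 0.00175). VEGFA was at 9.88 to 9.95 on the vehicle arrays and at 10.15 to 10.21 on the doxycycline arrays, a difference of 0.27 ± 0.07 that was called in 8 of the 16 fits that left out an array (adjusted p = 0.0319 from all arrays and up to 0.0976, without doxycycline replicate 3). P4HA1, a collagen prolyl hydroxylase, rose by 1.00 ± 0.24, with vehicle replicate 4 at 11.65 and doxycycline replicate 4 at 11.73 nearly level (adjusted p = 0.025, 0.0814 without doxycycline replicate 3 and 0.00369 without replicate 4). Of 26 glucose uptake and glycolysis genes 4 were higher and 0 lower (15.4% higher, against 2.67% of all genes), with a median of 0.08. Without replicate 4 the counts were 3 and 3 (11.5% each, against 3.78% and 6.85% of all genes). The median was then -0.02, so that the sign of the glycolysis median depended on the replicate 4 arrays.

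Lists of NF-κB targets and of NF-κB itself differed in their counts. NF-κB is a transcription factor that drives cytokine, chemokine and adhesion genes, and NFKBIA is its inhibitor and an immediate target. Of 34 NF-κB target cytokine, chemokine and adhesion genes 12 were higher and 2 lower, with a median of 0.21. These were 35.3% and 5.88%, against 2.67% and 1.99% of all genes. The counts without replicate 4 were 11 and 3, which is 32.4% and 8.82% against 3.78% and 6.85%. The mean level of this list was 6.48 to 6.66 on the vehicle arrays and 6.85 to 6.93 on the doxycycline arrays. Of 19 NF-κB subunits and inhibitors 1 was higher, the signalling adaptor TRAF1 (0.41 ± 0.09, limma, adjusted p = 0.0202, 0.0583 without vehicle replicate 1), and 0 were lower. Without replicate 4 the counts were 2 and 1. The shares of this second list were 5.26% and 0.0% from all arrays, and 10.5% and 5.26% without replicate 4. NFKBIA was at 12.93, 12.89, 13 and 12.10 on vehicle replicates 1 to 4 and at 12.65, 12.98, 12.89 and 13.29 on doxycycline replicates 1 to 4. These groups overlapped, and the difference was 0.22 (95% interval -0.14 to 0.58) from all arrays and -0.10 without replicate 4.

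PTGS2, the inducible cyclooxygenase that makes prostaglandins, was at 4.73, 4.59, 4.59 and 4.66 on vehicle replicates 1 to 4 and at 5.39, 5.34, 5.27 and 5.25 on doxycycline replicates 1 to 4. The groups lay far apart for the spread within them, with a difference of 0.67 ± 0.05 (limma, adjusted p = 3.11e-06). All vehicle arrays were below the median level of all genes (4.89) for PTGS2, and the doxycycline arrays not far above it. CSF1, the macrophage growth factor, was one of the 2 members that fell, from 11.02 to 11.58 on the vehicle arrays to 10.58 to 10.77 on the doxycycline arrays (-0.61 ± 0.10, adjusted p = 0.00187). CXCL8, the neutrophil chemokine interleukin-8, was at 8.10, 8.47, 7.90 and 8.92 and at 9.18, 9.47, 9.03 and 8.87, with both replicate 4 arrays level with each other (adjusted p = 0.0389 and 0.00363 without replicate 4). It was called in 5 of the 16 fits that left out an array, with adjusted p = 0.129 without vehicle replicate 1. Of 24 AP-1 and immediate early genes 2 were higher and 0 lower (8.33% higher, against 2.67% of all genes). The counts were 1 and 2 without replicate 4 (4.17% and 8.33%, against 3.78% and 6.85%). The phosphatase DUSP4 rose by 0.48 ± 0.08, and the stress factor ATF3 by 0.38 ± 0.09 (adjusted p = 0.00282 and 0.0239), the second lost without replicate 4 (0.0688) and without doxycycline replicate 3 (0.0738). DUSP4 was at 4.07 to 4.39 on the vehicle arrays and at 4.49 to 4.90 on the doxycycline arrays, near or below the median level of all genes.

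Genes of coagulation, plasminogen activation and adenosine handling at the cell surface gave 7 higher and 2 lower members of 22, around a median of 0.00. These were 31.8% and 9.09%, against 2.67% and 1.99% of all genes. Without replicate 4 the counts were 6 and 4, which is 27.3% and 18.2% against 3.78% and 6.85%. F3, the tissue factor that starts coagulation, was at 6.61, 6.89, 6.80 and 7.11 on vehicle replicates 1 to 4 and at 8.53, 8.58, 8.46 and 8.69 on doxycycline replicates 1 to 4. Both replicate 4 arrays were the highest of their groups for this gene, and the difference was 1.71 ± 0.10 (limma, adjusted p = 1.94e-07). PLAU, the urokinase protease, was at 5.29, 5.37, 5.44 and 5.06 and at 5.93, 5.97, 6.07 and 6.15, and its receptor PLAUR at 9.08, 9.44, 9.43 and 9.14 and at 9.81, 9.99, 9.98 and 10.36. Ligand and receptor rose to a similar extent, by 0.74 ± 0.08 and 0.76 ± 0.12 (adjusted p = 5.83e-05 and 0.00118). The adenosine-forming ectoenzyme NT5E and the adenosine-degrading enzyme ADA were both higher, by 1.47 ± 0.13 and 0.50 ± 0.10 (adjusted p = 1.43e-05 and 0.0114). THBD, the anticoagulant thrombomodulin, was at 5.68 to 5.91 on the vehicle arrays and at 5.40 to 5.53 on the doxycycline arrays (-0.31 ± 0.06, adjusted p = 0.00539).

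**Figure D4:**
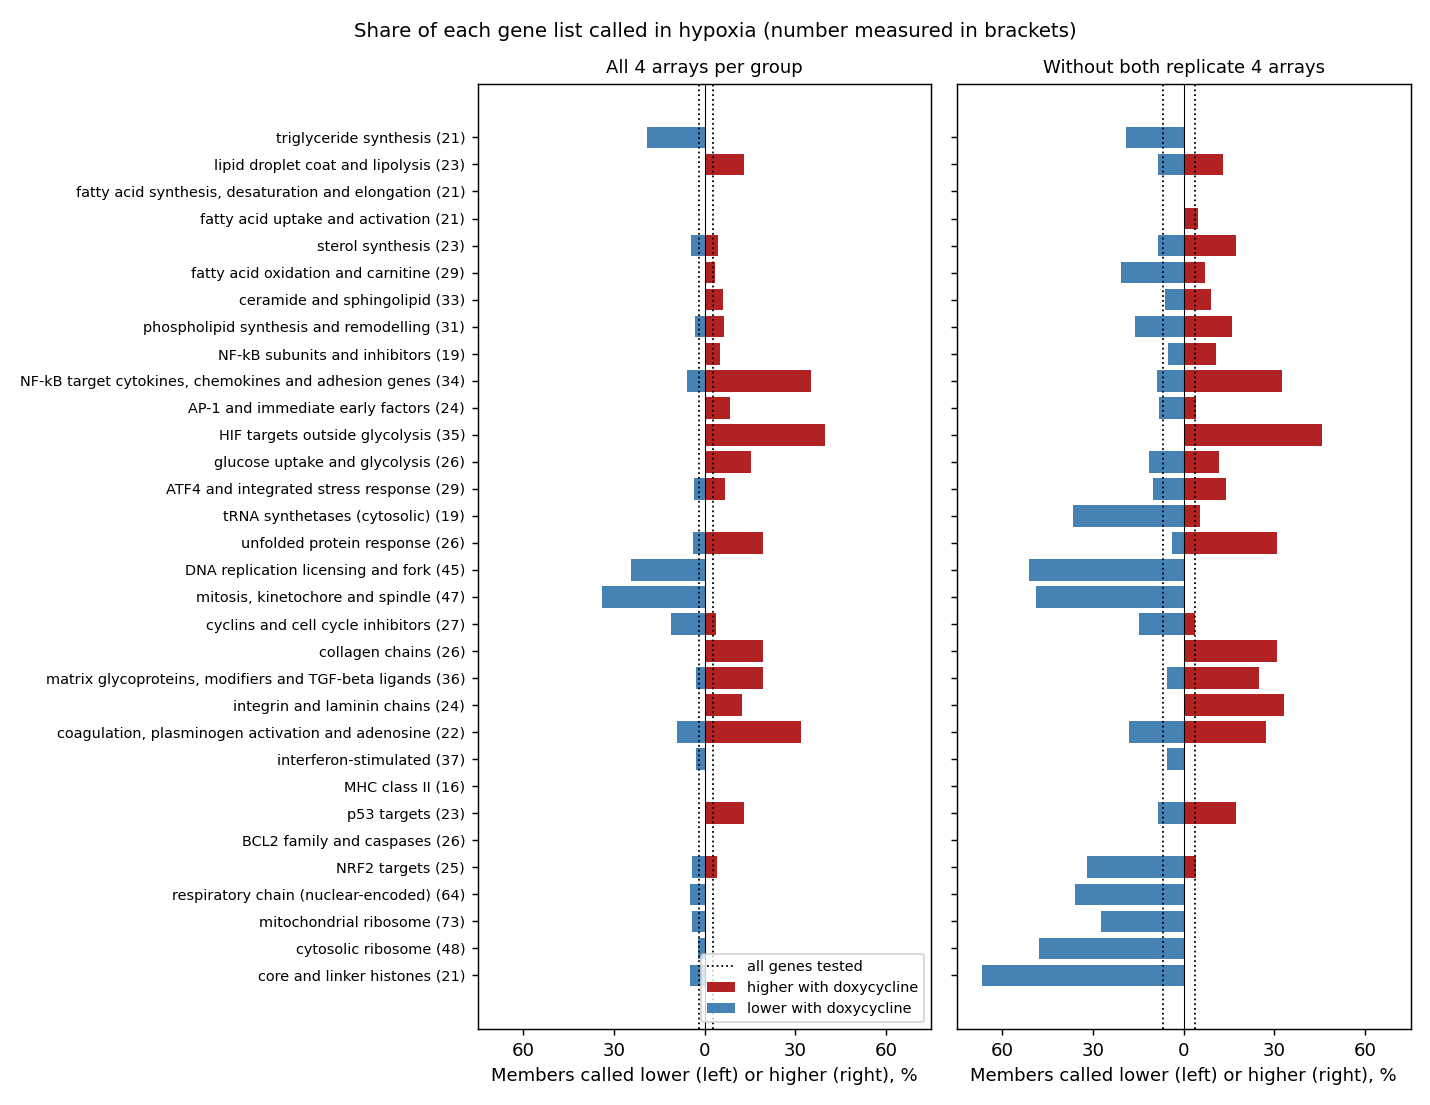
Percent of the measured members of each gene list called higher (right, red) or lower (left, blue) with doxycycline in hypoxia, from all arrays (left panel) and without both replicate 4 arrays (right panel); dotted lines mark the percent over all genes tested. HIF targets reach 40.0% higher and the mitosis list 34.0% lower from all arrays, while the histone, ribosome and respiratory chain lists gain most of their lower calls only without the replicate 4 arrays.

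Minorities of 3 lists of matrix genes were higher. Of 26 collagen chains 5 were higher and 0 lower (19.2% against 2.67% of all genes), and 8 and 0 without replicate 4. The median level of the collagen list was 4.45, and 11 of the 26 chains were above the median level of all genes (4.89). The called chains COL1A1 (4.58 to 4.95 on the hypoxia arrays) and COL4A5 (4.71 to 5.00) lay near that level. Of 36 matrix glycoproteins, modifiers and TGF-β ligands 7 were higher and 1 lower (19.4% and 2.78%), and 9 and 2 without replicate 4 (25.0% and 5.56%). Of 24 integrin and laminin chains 3 were higher and 0 lower (12.5% higher), and 8 and 0 without replicate 4 (33.3% higher). The collagen share without replicate 4 was 30.8% higher. Over all genes the shares were 2.67% higher and 1.99% lower, and 3.78% and 6.85% without replicate 4. Among the higher members the laminin chain LAMA4, at 4.38 to 4.65 on the hypoxia arrays, was below the median level of all genes. The medians of these lists were 0.08, 0.15 and 0.14 from all arrays, and most members did not pass. COL5A1, a chain of fibril-forming type V collagen, was at 5.41, 5.55, 5.41 and 5.67 on vehicle replicates 1 to 4 and at 6.32, 6.23, 6.22 and 6.24 on doxycycline replicates 1 to 4 (0.74 ± 0.06, limma, adjusted p = 1.03e-05). LTBP1, which anchors latent TGF-β in the matrix, was at 5.12, 5.17, 5.25 and 5.20 and at 5.75, 5.61, 5.71 and 5.60 (0.48 ± 0.06, adjusted p = 0.000141). Neither gene had an array in the range of the other group.

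SPARC, a collagen-binding matrix protein, was at 14.07, 14.32, 13.92 and 13.98 on vehicle replicates 1 to 4 and at 14.65, 14.62, 14.65 and 14.72 on doxycycline replicates 1 to 4 (0.59 ± 0.08, adjusted p = 0.000344). ITGA5, the integrin chain of the fibronectin receptor, was at 12.18, 12.09, 12.67 and 11.51 and at 13.26, 13.18, 13.36 and 13.48. Vehicle replicate 4 was again the lowest, and the ITGA5 difference was 1.21 ± 0.18 from all arrays and 0.95 without replicate 4 (adjusted p = 0.000879 and 0.0013). LAMC1, a laminin chain of basement membranes, varied little within the groups, at 13.26 to 13.36 and 13.67 to 13.75 (0.39 ± 0.05, adjusted p = 0.000402). THBS1, the matricellular thrombospondin that can activate latent TGF-β, was at 9.34, 9.58, 8.67 and 9.59 and at 10.64, 10.82, 10.67 and 10.88 (1.46 ± 0.16, adjusted p = 7.17e-05). INHBB, the inhibin and activin βB chain, was the 1 member of the matrix and ligand list that fell, from 13.78 to 13.96 down to 12.47 to 12.75, whereas TGFB1 rose by 0.51 ± 0.11 (adjusted p = 0.0104). The cause of this divergence between ligands of one family was not tested.

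Members of the DNA replication and mitosis lists were called lower more often than genes at large, though most did not pass from all arrays. Of 45 genes of replication licensing and the replication fork 0 were higher and 11 lower (24.4% against 1.99% of all genes), with a median of -0.34, and of 47 genes of mitosis, kinetochore and spindle 0 were higher and 16 lower (34.0%), with a median of -0.56. Without replicate 4 the counts of lower genes were 23 and 23 and the medians -0.41 and -0.45. The lower shares were then 51.1% and 48.9%, against 6.85% of all genes. All measured members of both lists were above the median level of all genes, whereas the shares over all genes include dimmer genes. With the 8 hypoxia arrays alone 2 and 1 members were lower, which is 4.44% and 2.13% against 0.402% of all genes. In a bulk sample, fewer cycling cells and less of these transcripts per cell cannot be told apart.

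MCM5 and MCM6 are subunits of the replicative helicase. MCM5 was at 10.33, 10.46, 10.27 and 9.97 on vehicle replicates 1 to 4 and at 8.53, 9.17, 8.90 and 9.48 on doxycycline replicates 1 to 4 (-1.24 ± 0.17, limma, adjusted p = 0.000497). MCM6 was at 11.02, 11.11, 10.28 and 10.85 and at 9.59, 10.03, 9.61 and 9.98 (-1.02 ± 0.16, adjusted p = 0.00149). No doxycycline array reached the vehicle range in either gene. POLE, the leading-strand polymerase, was at 7.46, 7.47, 7.48 and 7.24 and at 6.60, 6.91, 6.77 and 7.04 (-0.58 ± 0.09, adjusted p = 0.00187). GINS1, another helicase subunit, was at 9.53, 9.69, 9.22 and 9.12 and at 8.46, 8.59, 8.65 and 8.86 (-0.75 ± 0.12, adjusted p = 0.0021). For POLE and GINS1 both replicate 4 arrays lay at the edge of their group that faces the other, and the differences were -0.71 and -0.91 without them.

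Among mitosis genes, PRC1, which bundles spindle midzone microtubules, was at 11.41, 11.29, 10.96 and 11.21 on vehicle replicates 1 to 4 and at 10.08, 10.60, 10.21 and 10.59 on doxycycline replicates 1 to 4 (-0.85 ± 0.13, limma, adjusted p = 0.00135). CENPA, the centromeric histone, was at 9.94, 9.87, 9.87 and 9.65 and at 8.95, 9.35, 9.02 and 9.41 (-0.65 ± 0.10, adjusted p = 0.0013). KIF20A, a kinesin of cytokinesis, differed by -0.84 ± 0.16 (adjusted p = 0.00646). Vehicle replicate 4 held the highest mean level of the mitosis list, 9.84 against 9.10 to 9.45 on the other vehicle arrays and 8.74 to 9.18 on the doxycycline arrays, so that vehicle replicate 3 at 9.10 and doxycycline replicate 2 at 9.18 overlapped. MKI67, the Ki-67 antigen of cycling cells, followed it, at 12.25, 12.22, 11.83 and 12.93 and at 11.20, 11.85, 11.22 and 11.25. Its difference was -0.93 ± 0.22 from all arrays and -0.67 without replicate 4, which was no longer past the threshold (adjusted p = 0.0244 and 0.0584, and 0.0808 without doxycycline replicate 3). Of 27 cyclins and cell cycle inhibitors 1 was higher and 3 lower (3.7% and 11.1%, against 2.67% and 1.99% of all genes). The counts were 1 and 4 without replicate 4 (3.7% and 14.8%, against 3.78% and 6.85%). CCNA1, a cyclin best known from the germ line, was at 8.77, 8.72, 8.86 and 8.07 and at 6.95, 7.17, 7.22 and 7.45, and fell in both fits, by 1.41 from all arrays and by 1.67 without replicate 4. CDKN1A, the cyclin-dependent kinase inhibitor p21, rose by 0.51 ± 0.11 (adjusted p = 0.0141, and 0.0566 without doxycycline replicate 3).

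Promoters of 4 lowered cell cycle genes and of F3 are shown as examples, chosen because short motifs of known cell cycle and AP-1 factors occur in them. The sequences are RefSeq promoters of GRCh38.p14, from 250 bases before to 50 bases after the gene start, 5′ to 3′ on the gene's strand, with motif matches on either strand in capitals. The motifs were TTTCCCGC, TTTCGCGC, TTTGCCGC and TTTGGCGC for E2F, which drives replication genes, TTTGAA for the cell cycle homology region (CHR), through which the DREAM complex represses mitotic genes, and TGANTCA for AP-1. They were chosen after the values were seen. Of 5 promoters read and not shown, those of the lowered gene KIF20A and of the higher genes PLAU and TMEM45A held none of these motifs, that of the lowered gene GINS1 held an E2F and an AP-1 motif, and that of the mitosis gene CDC20 held CHR motifs.
MCM6, chr2:135876394-135876693, minus strand: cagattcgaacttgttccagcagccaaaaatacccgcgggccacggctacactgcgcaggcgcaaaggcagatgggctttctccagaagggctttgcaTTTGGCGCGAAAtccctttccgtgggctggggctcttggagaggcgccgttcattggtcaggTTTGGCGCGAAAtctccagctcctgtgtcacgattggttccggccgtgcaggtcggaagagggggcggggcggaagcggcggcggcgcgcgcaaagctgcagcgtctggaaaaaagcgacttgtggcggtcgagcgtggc
POLE, chr12:132687293-132687592, minus strand: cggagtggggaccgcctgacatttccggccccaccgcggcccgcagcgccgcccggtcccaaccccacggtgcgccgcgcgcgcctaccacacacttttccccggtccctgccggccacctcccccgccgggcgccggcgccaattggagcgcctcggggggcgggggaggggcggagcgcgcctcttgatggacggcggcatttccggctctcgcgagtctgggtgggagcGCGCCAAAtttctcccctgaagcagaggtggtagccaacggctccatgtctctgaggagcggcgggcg
CENPA, chr2:26785806-26786105, plus strand: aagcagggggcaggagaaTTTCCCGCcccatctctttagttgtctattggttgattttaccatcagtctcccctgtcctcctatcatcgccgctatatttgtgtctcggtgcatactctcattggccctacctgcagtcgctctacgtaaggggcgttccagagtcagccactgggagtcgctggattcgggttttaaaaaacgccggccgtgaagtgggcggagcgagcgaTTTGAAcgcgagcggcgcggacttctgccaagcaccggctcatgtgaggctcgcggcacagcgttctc
PRC1, chr15:90994486-90994785, minus strand: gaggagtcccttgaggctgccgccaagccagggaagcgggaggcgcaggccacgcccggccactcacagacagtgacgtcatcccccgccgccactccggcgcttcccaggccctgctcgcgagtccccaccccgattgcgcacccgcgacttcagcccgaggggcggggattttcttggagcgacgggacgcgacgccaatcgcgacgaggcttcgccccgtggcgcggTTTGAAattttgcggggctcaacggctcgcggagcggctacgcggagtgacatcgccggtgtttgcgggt
F3, chr1:94541710-94542009, minus strand: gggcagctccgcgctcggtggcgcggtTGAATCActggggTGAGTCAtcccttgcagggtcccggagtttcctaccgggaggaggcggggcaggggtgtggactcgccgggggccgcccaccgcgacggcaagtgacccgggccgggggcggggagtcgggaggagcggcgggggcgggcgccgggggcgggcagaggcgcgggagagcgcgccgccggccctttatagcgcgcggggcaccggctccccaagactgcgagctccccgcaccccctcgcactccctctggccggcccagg

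In MCM6 the capitals mark 2 stretches, each an E2F motif that overlaps a second one on the other strand, in POLE 1 E2F motif, in CENPA an E2F motif far from the start and a CHR motif close to it, in PRC1 a CHR motif, and in F3 a pair of AP-1 motifs. Promoters were given for 15374 of the genes tested. An E2F motif was found in 4.2% of them, in 2.14% of 467 promoters of higher genes, in 8.54% of 328 promoters of lower genes and in 55.3% of 38 promoters of the replication list. A CHR motif was found in 12.6% of all promoters, in 67.5% of 40 promoters of the mitosis list and in 2.63% of the replication list. Of the replication genes that were lower in both fits 7 of 9 promoters held an E2F motif, and of the mitosis genes 8 of 11 held a CHR motif. An AP-1 motif was found in 6.15% of all promoters, 8.99% of those of higher genes, 3.35% of those of lower genes and 28.0% of 25 promoters of the NF-κB target list. Of the NF-κB targets that changed in both fits 4 of 9 promoters held an AP-1 motif. Matches to the NF-κB consensus were at 6.0% and 6.1% in higher and lower genes against 6.34% of all, in 44.0% of the promoters of the NF-κB target list, and in 1 of the 9 of its members that changed in both fits. These shares describe letters in the windows, and binding of the factors was not measured.

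Other stress and housekeeping lists split by their dependence on the replicate 4 arrays. Over all genes the shares were 2.67% higher and 1.99% lower, and 3.78% and 6.85% without replicate 4. Of 26 unfolded protein response genes 5 were higher and 1 lower (19.2% and 3.85%), with a median of 0.18. Without replicate 4 the counts were 8 and 1 (30.8% and 3.85%). ERN1, the sensor IRE1α, rose by 0.34 ± 0.06 (limma, adjusted p = 0.00182) from 5.29 to 5.48 on the vehicle arrays to 5.63 to 5.73 on the doxycycline arrays. XBP1, whose mRNA IRE1α splices, was the lower member at -0.35 ± 0.09 (adjusted p = 0.0491), a call made in 2 of the 16 fits that left out an array. Without both replicate 4 arrays the XBP1 difference was -0.47 (adjusted p = 0.00344). Of 29 ATF4 and integrated stress response genes 2 were higher and 1 lower (6.9% and 3.45%), and 4 and 3 without replicate 4 (13.8% and 10.3%). The counts for 23 p53 targets were 3 and 0, and 4 and 2 without replicate 4. Of 25 NRF2 targets 1 was higher and 1 lower from all arrays, but 1 and 8 without replicate 4 (32.0% lower against 6.85% of all genes). The 19 cytosolic tRNA synthetases gave 0 calls from all arrays, and 1 higher and 7 lower without replicate 4 (5.26% and 36.8%). For 37 interferon-stimulated genes the counts were 0 and 1 (2.7% lower), and 0 and 2 without replicate 4 (5.41% lower). The 26 BCL2 family and caspase genes and the 16 MHC class II genes gave 0 calls in both fits. Named members of these lists included TP53I3, a p53-induced oxidoreductase, which rose by 0.44 ± 0.07 (adjusted p = 0.00207), and FGF21, a stress-induced hormone, at 3.27 to 3.35 on the vehicle arrays and 3.44 to 3.61 on the doxycycline arrays, below the median level of all genes. PSPH, an enzyme of serine synthesis, was at 13.25 to 13.56 and 12.95 to 13.13 (-0.39 ± 0.07, adjusted p = 0.00539). From all arrays the NRF2 calls were ABCC2, an export pump of conjugates, which rose by 0.50 ± 0.08, and AKR1C2, a ketosteroid reductase, which fell by 0.41 (adjusted p = 0.00173 and 0.00709). ISG15, a ubiquitin-like interferon-induced protein, was the 1 lower interferon-stimulated gene, at 4.50 to 4.68 and 4.15 to 4.44 (-0.32 ± 0.07, adjusted p = 0.0117). The interferon list had mean levels of 8.94 to 9.82 on the vehicle arrays and 8.96 to 9.81 on the doxycycline arrays, so that the ranges of the groups nearly coincided.

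The 64 nuclear-encoded respiratory chain genes, 73 mitochondrial ribosome genes, 48 cytosolic ribosome genes and 21 histone genes had 3, 3, 1 and 1 lower members from all arrays, with 0 higher in each, and 23, 20, 23 and 14 lower without replicate 4. The lower shares were 4.69%, 4.11%, 2.08% and 4.76% from all arrays, against 1.99% of all genes. Without replicate 4 they were 35.9%, 27.4%, 47.9% and 66.7%, against 6.85% of all genes. Above the median level of all genes were 63, 72, 48 and 17 members of these lists, whereas the shares over all genes include dimmer genes. Shares over brighter genes alone were not computed. With dim genes filtered out, 580 genes were lower from all arrays, in place of 447. Not measured were 30 of 78 listed cytosolic ribosome genes and 28 of 49 listed histone genes. Mean levels of all these lists on vehicle replicate 4 were within or near the range of the doxycycline arrays. For cytosolic ribosome genes the means were 11.42, 11.48, 11.39 and 11.11 on vehicle replicates 1 to 4 and 11.14, 11.23, 11.18 and 11.31 on doxycycline replicates 1 to 4, and for histone genes 8.55, 8.67, 8.35 and 8.0 and 7.81, 8.09, 7.91 and 8.32. On both means doxycycline replicate 4 was the highest of its group and vehicle replicate 4 the lowest, within the range of the doxycycline arrays or under it. The mitochondrial ribosome protein MRPS7 fell in both fits, by 0.71 from all arrays and by 0.88 without replicate 4 (limma, adjusted p = 0.00193 and 0.000227).

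The difference in hypoxia was also set against that in normoxia, measured on the other 8 arrays. Of the genes called in hypoxia, 440 of the 598 higher and 309 of the 447 lower were called in the same direction in normoxia, and 0 in the opposite direction. The shared genes were 73.6% of the higher and 69.1% of the lower genes in hypoxia, and 44.3% of 993 higher and 29.7% of 1042 lower genes in normoxia. The test of a difference between the oxygen levels called 0 genes (0.0% of 22411, limma), with 1026 at an unadjusted p under 0.05 and a smallest adjusted p of 0.643. Without both replicate 4 arrays it again called 0, with 1143 unadjusted and a smallest adjusted p of 0.734.

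The genes with the smallest unadjusted p in that test are given as values, none of which passes adjustment. RARRES1, a retinoic acid-responsive membrane protein, was at 6.21, 6.32, 6.18 and 6.35 on vehicle hypoxia replicates 1 to 4 and at 5.73, 5.50, 5.77 and 5.66 on doxycycline hypoxia replicates 1 to 4, while in normoxia both groups lay between 5.86 and 6.09. SLC9A9, an endosomal sodium and proton exchanger, was at 10.20 to 10.74 on the vehicle arrays and 10.62 to 10.79 on the doxycycline arrays in hypoxia, and at 9.66 to 9.97 and 10.70 to 10.85 in normoxia. Vehicle arrays of SLC9A9 were thus higher in hypoxia, and doxycycline arrays were level at both oxygen levels. CA2, a cytosolic carbonic anhydrase, differed by 0.14 ± 0.06 in hypoxia and by 0.58 ± 0.06 in normoxia, and PTGS2 by 0.67 ± 0.05 and 0.33 ± 0.05. The adjusted p-values of these oxygen differences were 0.643 for RARRES1, 0.9 for SLC9A9, 0.785 for CA2 and 0.956 for PTGS2 (limma, Benjamini-Hochberg).

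**Figure D5:**
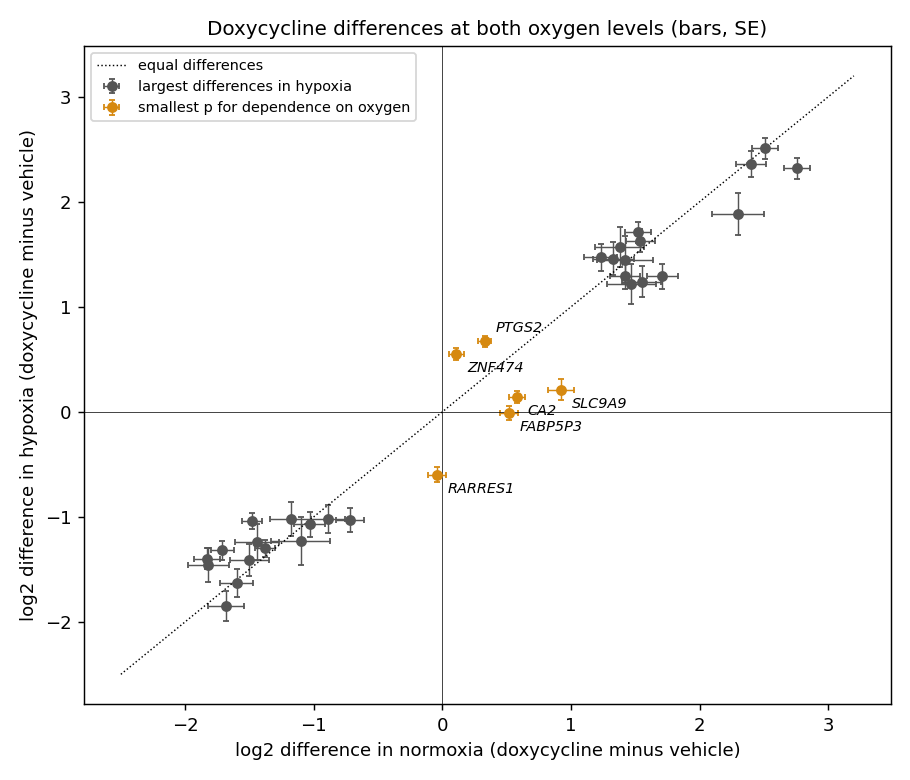
Differences between doxycycline and vehicle on the log2 scale in normoxia (horizontal axis) and hypoxia (vertical axis), with standard errors from the fit of all 16 arrays, for the 28 genes with the largest differences in hypoxia (grey) and the 6 genes with the smallest p for a dependence on oxygen (orange, named). The 28 genes, which were chosen by their hypoxia values, have the same sign at both oxygen levels. Some lie off the dotted line of equal differences, such as NT5DC3 (-1.04 in hypoxia and -1.48 in normoxia) and CLEC4E (2.32 and 2.76). None of the 6 named genes passes the adjusted test.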

How the data were processed

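From A498 cells 250 ng of total RNA per array was labelled and hybridised to 16 arrays by the study, 4 in each combination of vehicle or doxycycline and normoxia or hypoxia. The authors deposited log2 values, made by RMA (background correction, quantile normalization and summary of probes), with Transcriptome Analysis Console also named in the submitters' processing notes. No array type is stated for these cells, and tool versions and scan dates are likewise not given in the sources used here. For this reason no scan batch was modelled. The table held 70523 probe sets with values from 1.71 to 19.85 and array medians of 3.91 to 4.11. Of these probe sets 590 were above 16 on all arrays, and folds refer to the deposited scale.

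Probe sets with exactly 1 gene symbol (23781 of 70523, against 1543 with several and 45199 with none) were kept, with symbols from GEO's platform annotation of the identifiers in the value table, which is of the array type that the methods name for tumour samples. They were updated through RefSeq (21497 by gene identifier, 2280 by symbol or synonym, 4 kept as given), and the brightest probe set stood for each of 528 genes with several, which left 22411 genes. Array titles gave the groups. Group means were estimated on all 16 arrays together in limma 3.58.1 (R 4.3.3) with a trended prior variance, tested two-sided and adjusted by Benjamini-Hochberg over all genes, with a threshold of 0.05, and the fit was tested on simulated data. Errors are standard errors unless given as SD, and differences are doxycycline minus vehicle. The 36 gene lists overlap in part and are described by counts and medians, without a set test. Shares over all genes include dim genes and were not matched to the lists by level. Alternatives were each array left out, both replicate 4 arrays left out, only the hypoxia arrays, the replicate number as a block, a filter on dim genes, the mean of probe sets, 2 other scalings, no trend, array weights and the methods' t-test.

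The members and lists were chosen with earlier results of these data known. Named were DGAT1, DGAT2, SCD, PLIN2, HILPDA and NFKBIA, the 14 largest increases and 14 largest decreases called in both fits without overlap of arrays and with the brighter group above 4.89, up to 3 members per list and direction (the nearest where none passed), the 6 largest changes called only without replicate 4, and the 6 smallest p for a dependence on oxygen. Only a selection of these is printed. AGPAT2, ADM, KDM3A, P4HA1, VEGFA, CXCL8, PLAUR, ADA, GINS1, MKI67 and TGFB1 were outside that rule and were named after their values were seen. The number of arrays limits the precision.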

Additional observations from a re-analysis of the deposited data

Results flagged for a closer look

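Among the 99 genes printed or drawn, the 2 hypoxia groups were searched for an array far from the other 3, which gave 10 such arrays in 198 groups of 4. Chance gives about 5%, or 1 in 20 groups, which is close to the number found. Vehicle replicate 4 was the far array in 4 of these groups. It was at 12.10 for NFKBIA (the others at 12.89 to 13), at 7.24 for POLE (7.46 to 7.48), at 8.86 for PREX2 (7.07 to 7.30) and at 8.65 for GXYLT1 (7.14 to 7.36). PREX2 and GXYLT1 were named because they were called only without replicate 4, so that a far replicate 4 was to be found in them by choice. Doxycycline replicate 4 was far in PNPLA3, at 5.65 against 5.54 to 5.55. Doxycycline replicate 2 was far in LSS, at 9.99 against 10.20 to 10.24, in C3, at 11.66 against 11.86 to 11.87, and in MKI67, at 11.85 against 11.20 to 11.25. Vehicle replicate 2 was at 12.33 for LPCAT1, against 12.09 to 12.13, and doxycycline replicate 1 at 4.44 for ISG15, against 4.15 to 4.19. For NFKBIA the sign of the difference without both replicate 4 arrays (-0.10) was opposite to that from all arrays (0.22), and neither passed the threshold.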

How the results depend on the processing

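From all arrays 598 genes were higher and 447 lower. Without 1 array at a time the counts ran from 370 to 787 higher and from 216 to 1002 lower, and without both replicate 4 hypoxia arrays lower genes numbered 1535. Only the 8 hypoxia arrays in the fit gave 195 higher and 90 lower, and the same arrays without both replicate 4 gave 855 higher and 908 lower. Another quantile normalization gave 1022 higher genes, array weights gave 2041 higher and 3048 lower, and the methods' t-test gave 139 higher and 59 lower after Benjamini-Hochberg adjustment, with 2967 genes at an unadjusted p under 0.05. The cause of these shifts was not tested, and the smaller fits also hold fewer arrays. The test of dependence on oxygen called 0 genes in each alternative run. The log2 difference ran from -1.40 to -1.25 for DGAT1 and from -1.48 to -1.33 for DGAT2 when 1 array was left out, and no alternative turned the sign of a called gene among the 99 genes printed or drawn. Without both replicate 4 arrays 4 of the 99 lost their call (LSS, SMPD1, ATF3 and MKI67) and 6 gained one. With only the 8 hypoxia arrays in the fit 34 of the 99 lost their call, and with the methods' t-test 52. Among the 34 were MCM6, CENPA, CSF1, TGFB1, KIF20A and AKR1C2 (limma, adjusted p = 0.053, 0.0613, 0.0622, 0.0773, 0.106 and 0.124).

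Same-numbered arrays of the hypoxia groups deviated with r = -0.426, -0.313, 0.198 and -0.835. Vehicle replicates 1 to 3 each correlated best with doxycycline replicate 4. Since 1 component held 72.8% of the variance within the groups, these values cannot decide whether the numbers pair the samples. With the replicate number as a block 441 genes were higher and 277 lower. The scalings moved the median of all genes by at most 0.015. The number of arrays limits the smallest differences that could be called, and genes near or under the median level of 4.89 lie close to the background of the arrays.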

Other observations

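Of the 39 genes above 16 on all hypoxia arrays, 1 passed the test. Compression at the top of the deposited scale would hide differences there, and its extent was not tested. In the promoters of HIF targets a core hypoxia response letter string (ACGTG or GCGTG) was found in 79.3% of 29, against 55.4% of all 15374 promoters, 54.2% of those of higher genes and 64.9% of those of lower genes.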
